A study of Mus musculus with 6 samples.

Results

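The genes described here are those of the mitochondrial ribosomal proteins, chosen by symbol alone: every gene whose name in the array annotation is Mrpl or Mrps followed by a number. 44 of the 6788 genes named on the array qualified, measured by 49 cDNA clones. The mitochondrial ribosome sits at the inner membrane and makes the few proteins that mitochondrial DNA encodes, all of them core subunits of the oxidative phosphorylation complexes. Its RNA is transcribed inside the organelle, whereas every one of its proteins is encoded in the nucleus, made on cytosolic ribosomes and imported. Many of these proteins descend from bacterial ribosomal proteins, and the others were added during the evolution of mitochondria. Of the 44 genes, 33 encode large subunit proteins and 10 small subunit proteins, and 30 have a bacterial homolog while 13 are known from mitochondria only. The remaining gene, Mrps36, carries the name, but its product is now known as a component of the 2-oxoglutarate dehydrogenase complex.

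Cells of the mouse neuroblastoma line Neuro-2a were transiently transfected with Fugene 6 and either 59Q, which expresses GFP-tagged human TBP (the TATA-binding protein) with a CAG repeat length of 59, or N3, the pEGFP-N3 vector that expresses GFP without TBP. Both groups therefore carried GFP and the transfection reagent, and as cells were transfected transiently, each RNA pool also held cells without the construct. Total RNA was taken at 60 h, and 59Q and N3 RNA were hybridized together on each of 6 two-colour mouse cDNA arrays, so that each array compares them directly. Replicates 1, 3, 4 and 6 had 59Q in Cy5 and N3 in Cy3, and replicates 2 and 5 had the dyes the other way round. The comparison asks which transcripts differ between cells with the expanded protein and cells with the vector. No array held human TBP with a shorter repeat, so the repeat length and the added TBP cannot be told apart. In bulk RNA a transcript level per cell and the number of cells that carry it cannot be told apart. Of the neuroblast marker list 4 of 13 genes were named on the array (Th, Gata2, Gata3 and Tubb3), and their mean values in the deposited sign ran from -0.318 to 0.568. Of the list for other cell types, Mbp (-0.623, turned -0.397) and Alb (0.0945, turned -0.0455) were named. The part of these cell type markers in the values below was not tested.

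Each value is the Z-ratio that the authors deposited, a score with a mean of 0 and an SD of 1 over the spots of an array, so it ranks a spot among the spots of that array and gives no fold change. The study's methods call the 59Q cells treated and the N3 cells controls, and the study plots its Z-ratios as 59Q against vector, which is the first of the 2 readings given here. For the deposited columns themselves the numerator is not stated on arrays of either orientation, so a second reading is given beside it. As deposited, a value above 0 is read as higher in 59Q on every array. In the Cy5 over Cy3 reading the deposited value is taken as the ratio of the dyes, so the sign of replicates 2 and 5 is turned before averaging, and a value above 0 is again read as higher in 59Q. What follows the dye in the first reading follows the construct in the second, and the deposited values cannot tell these apart. Of the 44 genes, 34 had a value on all 6 arrays, and 43 had one on at least 4 and were tested. The exception was Mrpl13, a large subunit protein, which had values of -1.78, 0.659 and -3.16 on replicates 1, 2 and 5 alone. Replicate 3 lacked 36% of its spots and 10 of the 44 genes, replicate 4 lacked 4 genes, replicate 6 lacked 1, and the other arrays lacked none. The 2 spots of each clone gave Pearson's r of 0.793 to 0.966 over the member clones of an array.

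The array carries cDNA clones, so the sequences that bear on the transfected factor are the promoters. TBP recognises the TATA box, and NRF1 and ETS family factors are known regulators of nuclear genes for mitochondrial proteins. RefSeq promoter windows of build GRCm38.p6 were found for 39 of the 44 genes, with 44 windows, and the 250 bases before the start were searched on both strands. The letters of a TATA box, TATAAA or TATATA, were in 4 of the 44 windows (9.09%) against 15.6% of all 32851 windows. They were counted anywhere in the 250 bases, and whether TBP binds at these matches was not tested. An NRF1 core, GCATGCGC, was in 5 windows (11.4%) against 2.26% of all, and an ETS core, CCGGAAGT, in 5 windows (11.4%) against 2.88% of all. NRF1 cores can overlap on opposite strands because the letters are nearly a palindrome. The last 150 bases before the start are shown for 4 of the 6 genes whose array values had opposite signs in the 2 dye orientations, with motif matches in capitals where there are any. Of the other genes, Mrps35 had no window, and the gene record of Mrpl24 begins upstream of its window, so its bases are not shown. Mrpl20 (chr4:155802728-155802877, plus strand) and Mrpl30 (chr1:37890327-37890476, plus strand) were above 0 with 59Q in Cy5, and Mrpl42 (chr10:95501950-95502099, minus strand) and Mrpl49 (chr19:6057756-6057905, minus strand) were below 0 there.
Mrpl20: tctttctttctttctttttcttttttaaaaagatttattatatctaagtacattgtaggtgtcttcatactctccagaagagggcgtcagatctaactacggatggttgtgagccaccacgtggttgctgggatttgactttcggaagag
Mrpl30: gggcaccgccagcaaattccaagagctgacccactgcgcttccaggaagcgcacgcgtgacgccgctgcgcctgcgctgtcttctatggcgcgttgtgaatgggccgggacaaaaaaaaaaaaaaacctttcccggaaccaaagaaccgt
Mrpl42: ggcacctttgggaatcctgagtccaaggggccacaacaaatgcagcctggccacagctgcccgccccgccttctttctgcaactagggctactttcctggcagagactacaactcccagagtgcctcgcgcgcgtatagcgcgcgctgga
Mrpl49: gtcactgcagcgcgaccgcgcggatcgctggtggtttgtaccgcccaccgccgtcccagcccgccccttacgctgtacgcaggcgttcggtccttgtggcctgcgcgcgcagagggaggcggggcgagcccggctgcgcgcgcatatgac

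None of these 4 windows, nor that of Mrpl24, held one of the motifs in its 250 bases, which says only that these letters are absent there. The next 4 sequences show what a match looks like and were picked for their matches. The window of Mrpl32 (chr13:14613038-14613187, minus strand) held 4 NRF1 matches and that of Mrpl17 (chr7:105811088-105811237, minus strand) held 1. Mrpl51 (chr6:125192050-125192199, plus strand) had an ETS match 90 bases before the start. Mrpl16 (chr19:11770265-11770414, plus strand) had a match to the TATA box letters 68 bases before the start, the nearest of the 4 TATA matches. Those of Mrpl46, Mrps17 and Mrpl48 lay 131, 154 and 190 bases before it.
Mrpl32: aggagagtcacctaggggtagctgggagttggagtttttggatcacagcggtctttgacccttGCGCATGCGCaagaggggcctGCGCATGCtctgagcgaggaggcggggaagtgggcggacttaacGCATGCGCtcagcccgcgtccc
Mrpl17: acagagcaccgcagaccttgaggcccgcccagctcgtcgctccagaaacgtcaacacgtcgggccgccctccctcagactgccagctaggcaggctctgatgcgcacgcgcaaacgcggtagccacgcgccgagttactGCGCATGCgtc
Mrpl51: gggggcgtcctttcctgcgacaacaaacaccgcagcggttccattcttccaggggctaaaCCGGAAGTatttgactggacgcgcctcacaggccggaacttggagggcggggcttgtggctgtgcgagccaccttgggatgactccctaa
Mrpl16: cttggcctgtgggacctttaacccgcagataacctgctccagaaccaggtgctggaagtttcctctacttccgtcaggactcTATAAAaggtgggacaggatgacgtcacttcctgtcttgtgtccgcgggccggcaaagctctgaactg

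The mean with 59Q in Cy5 was below that with 59Q in Cy3 for all 4 of these genes. The differences were -0.480 for Mrpl16, -1.01 for Mrpl32, -0.792 for Mrpl17 and -0.684 for Mrpl51. The mean was also below for 32 of the 43 members tested and for 4198 of all 6463 genes tested. Mrpl16, the gene with the TATA match nearest its start, had values of 0.00196, -0.452, -0.517, -0.184, 0.943 and -0.240 on replicates 1 to 6. Mrpl32, whose product is cleaved by a mitochondrial protease before it joins the large subunit, had values of -1.05, 0.702, -0.789, -0.119, 0.476 and 0.258. Mrpl17 was measured on 4 arrays, at 1.32, -0.493, -0.117 and -3.51 on replicates 1, 2, 5 and 6. Mrpl51, a large subunit protein known from mitochondria only, had -0.789, 0.243, -0.728, 0.275, 0.714 and 0.418 on replicates 1 to 6. Each of the 4 genes had values on both sides of 0 in the deposited sign.

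As a group the mitochondrial ribosomal proteins lay close to the rest of the array. In the deposited sign the median of the 43 gene means was -0.0462, against -0.0449 for all 6463 genes tested, with 16 genes above 0 (37.2%) against 43.1% of all genes. With a term for the dye orientation this median was 0.0175, on the other side of 0. With the signs of replicates 2 and 5 turned, the median was -0.255 against -0.160, and 11 genes were above 0 (25.6%) against 34.6% of all. The median difference between the orientations, 59Q in Cy5 minus 59Q in Cy3, was -0.480 against -0.317. It was above 0 in 11 genes and below in 32 (25.6% above, against 35% of all genes). The cytosolic ribosomal proteins, which translate the mRNAs of both kinds of ribosomal protein, stood elsewhere. Their 70 genes had medians of 0.103 and 0.809 in the 2 readings and a median orientation difference of 1.85, with 64 genes above 0. The 57 oxidative phosphorylation subunits tested were all encoded in the nucleus, so none is made by the mitochondrial ribosome itself. They had a median orientation difference of -0.458 and medians of -0.0584 and -0.229 in the 2 readings.

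**Figure D1:**
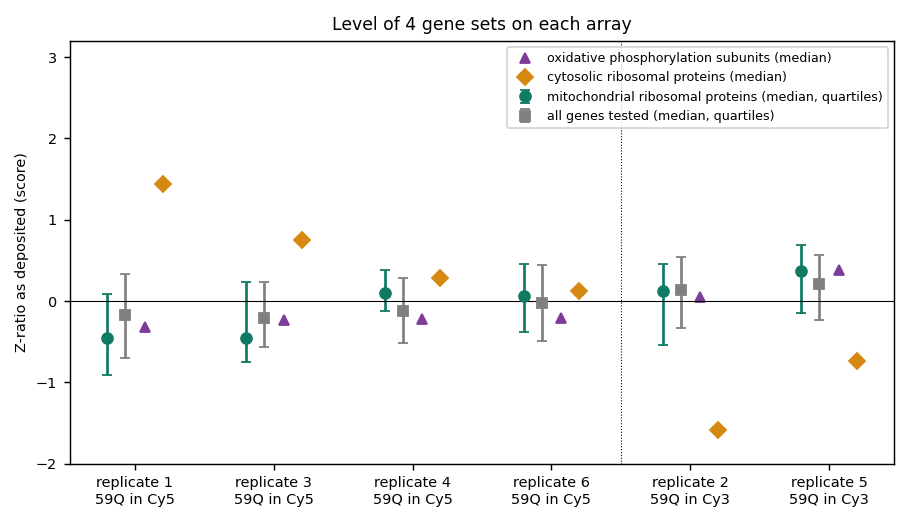
Median Z-ratio (score, y axis) of 4 gene sets on each of the 6 arrays (x axis), with quartiles as bars for the mitochondrial ribosomal proteins and for all genes tested. The mitochondrial set ran from -0.455 to 0.368 and stayed near all genes (-0.204 to 0.211), while the cytosolic set was above 0 on all 4 arrays with 59Q in Cy5 and at -1.58 and -0.734 on replicates 2 and 5.

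By array, the medians of the mitochondrial ribosomal proteins were -0.454, 0.123, -0.455, 0.103, 0.368 and 0.0598 on replicates 1 to 6. Those of all genes were -0.173, 0.139, -0.204, -0.118, 0.211 and -0.0284, so replicates 1 and 3 were the low arrays and replicate 5 the high one for both. All 4 medians with 59Q in Cy5 were below both others, narrowly for the mitochondrial set (0.103 on replicate 4 against 0.123 on replicate 2), and the same held for all genes. Cytosolic ribosomal protein medians were 1.44, -1.58, 0.750, 0.282, -0.734 and 0.121. On each of the 4 arrays with 59Q in Cy5 the mitochondrial median was below the cytosolic one, by 0.0611 on replicate 6 to 1.89 on replicate 1, and on both arrays with 59Q in Cy3 it was above, by 1.71 and 1.10.

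In the deposited sign no mitochondrial ribosomal protein gene passed: limma called 0 of 43 and also 0% of all 6463 genes at an adjusted p under 0.05. At an unadjusted p under 0.05 it marked 1 of the 43 genes, Mrpl2, against 2.61% of all genes. Mrpl2 encodes a conserved large subunit protein that lies near the peptidyl transferase centre. Its values were -1.71, -0.354, -0.655, -0.0195, -0.859 and -0.186 on replicates 1 to 6, a mean of -0.631 ± 0.611 (SD, n = 6). It was the only one of the 34 genes on 6 arrays with the same sign on 6 of 6, where 1.58% of all genes had 1 sign, and it failed the correction (limma adjusted p = 0.999). The exact 2-sided sign-flip permutation test gave p = 0.03125, the smallest that 6 arrays allow. Any gene with the same sign on all 6 arrays gets this p, so it restates the shared sign and is no separate result. The orientation means of Mrpl2 were almost equal, at -0.643 with 59Q in Cy5 and -0.607 with 59Q in Cy3, and its mean in the Cy5 over Cy3 reading was -0.226 ± 0.889 (SD, n = 6).

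In the Cy5 over Cy3 reading 2 of the 43 genes passed, both higher: Mrpl20 and Mrpl24, where 0.263% of all genes were called higher. Of the 70 cytosolic ribosomal protein genes 2 were called higher as well, and 41 were higher at an unadjusted p under 0.05. No member was called lower, against 0.0155% of all genes. At an unadjusted p under 0.05, 3 members were higher (6.42% of all genes) and 4 were lower (13.4% of all genes), so the members' lower share of 9.30% was under that of the array. Neither call held when any 1 of the 6 arrays was left out, when limma adjusted p ran from 0.0596 to 0.155 for Mrpl20 and from 0.0591 to 0.155 for Mrpl24.

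Mrpl20 encodes a homolog of a bacterial protein that binds the large ribosomal RNA early in assembly. Its deposited values were 1.19, 1.04, 1.30 and 1.26 on replicates 1, 3, 4 and 6, and -0.957 and -1.37 on replicates 2 and 5. The orientations did not overlap, and the spread with 59Q in Cy5 was small (1.20 ± 0.114, SD, n = 4). As deposited the mean was 0.410 ± 1.23 (SD, n = 6, limma adjusted p = 0.999), and with the signs turned 1.18 ± 0.157 (SD, n = 6, limma adjusted p = 0.0442).

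Mrpl24 encodes a protein beside the exit of the tunnel through which the new chain leaves the ribosome. It had 2.87, 7.08, 7.65 and 3.35 with 59Q in Cy5 and -2.51 and -2.99 with 59Q in Cy3. It was the only member beyond the study's threshold of 1.96 on all 6 arrays, and the only one whose deposited mean was beyond it (2.57 ± 4.55, SD, n = 6), against 0.263% of all genes. That mean combined 4 values above 0 with 2 below, and did not pass (limma adjusted p = 0.999). Its mean in the turned reading was 4.41 ± 2.31 (SD, n = 6, limma adjusted p = 0.0468). Its 2 spots on replicate 4 differed, at 12.3 and 3.04, while on the other arrays they lay within 1 unit of each other.

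Mrpl30, another conserved large subunit protein, had 2.53, 4.43, 0.651 and 1.54 with 59Q in Cy5 and -2.30 and -12.0 with 59Q in Cy3. The value of replicate 5 was the farthest from 0 of any member, and its 2 spots agreed (-12.0 and -12.1), whereas those of replicate 3 were 7.14 and 1.71. Its deposited mean was -0.862 ± 5.90 (SD, n = 6) and its mean in the Cy5 over Cy3 reading 3.91 ± 4.17 (SD, n = 6), which did not pass (limma adjusted p = 0.159). Limiting spot values to 5 before averaging brought it past the threshold in that reading. Mrpl20, Mrpl24 and Mrpl30 were the 3 members above 0 on 6 of 6 arrays in the Cy5 over Cy3 reading, of 34, where 5.01% of all genes were, and 1 member, Mrpl42, was below 0 on all 6, where 11.2% were.

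**Figure D2:**
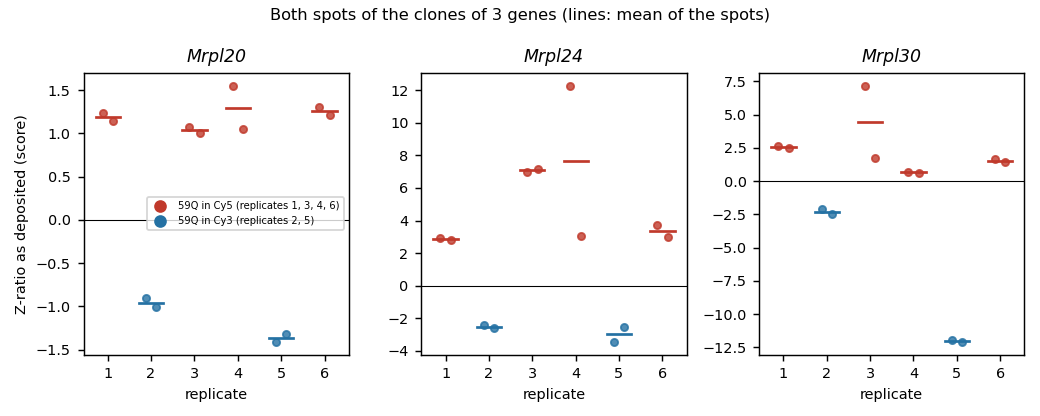
Z-ratio as deposited (score, y axis) of both spots of the clones of Mrpl20, Mrpl24 and Mrpl30 on each replicate (x axis), with the mean of the spots as a line and a separate y scale per gene. In all 3 genes the 4 arrays with 59Q in Cy5 lie above 0 and the 2 arrays with 59Q in Cy3 below, and the spots of Mrpl24 on replicate 4 (12.3 and 3.04) and of Mrpl30 on replicate 3 (7.14 and 1.71) stand apart from each other.

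The difference between the orientations was also tested gene by gene, with limma and 59Q in Cy5 minus 59Q in Cy3. No gene passed at an adjusted p under 0.05, 0 of 43 members and 0% of all genes, with a smallest limma adjusted p of 0.134. At an unadjusted p under 0.05 there were 4 members (Mrpl20, Mrpl24, Mrpl30 and Mrpl49) against 16.1% of all genes. The differences were 2.36 ± 0.392 for Mrpl20, 7.99 ± 1.31 for Mrpl24 and 9.45 ± 2.19 for Mrpl30 (SE). Mrpl9, a large subunit protein with a bacterial homolog, followed at 0.746 ± 0.502 (SE), with values from -1.08 to 0.634 that overlapped between orientations. Mrpl44, which has an RNase III-like fold and lies in the large subunit, came next at 0.616 ± 0.825 (SE).

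At the other end stood Mrpl49, a large subunit protein known from mitochondria only, at -3.48 ± 1.26 (SE). Its values were -0.552, 0.383, 4.57 and -1.46 on replicates 1, 2, 5 and 6, so the difference rested mainly on replicate 5. Mrps25, a small subunit protein of the same class, had 1.24, 3.76, -1.18, 0.0471, -0.0322 and 0.441 on replicates 1 to 6 and a difference of -1.73 ± 1.00 (SE), with orientations that overlapped. Mrpl27, whose bacterial homolog reaches into the peptidyl transferase centre, had a difference of -1.29 ± 0.611 (SE) and values of -0.645, 0.791, 0.524, -0.307, 0.684 and -1.77. The difference was -1.05 ± 0.469 (SE) for Mrpl18, homolog of a bacterial protein that binds 5S rRNA, and -1.03 ± 0.465 (SE) for Mrpl42. In Mrpl42 the 4 values with 59Q in Cy5 ran from -1.27 to -0.0984 and the other 2 were 0.299 and 0.440.

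Without overlap, all 4 values with 59Q in Cy5 were above both others in 3 of the 34 members on 6 arrays (8.82%), against 8.42% of all genes. They were below both others in 6 members (17.6%), against 24.4% of all genes. These 6 were Mrpl15, Mrpl18, Mrpl27, Mrpl32, Mrpl42 and Mrpl45, each in the large subunit. Of the 34 members on 6 arrays, 25 were large subunit genes and only 8 small, and a difference between subunits was not tested. The members' shares were thus close to or under those of all genes. With 1 array left out fewer values have to be separate and the shares of all genes rose too. Without replicate 2, 21 of 34 members had no overlap (61.8%, against 56% of all genes), without replicate 5 there were 16 of 34 (47.1%, against 57.8%) and without replicate 4 there were 14 of 34 (41.2%, against 36.7%). Over the 43 members tested, whatever arrays they were on, 3 were above 0 wherever 59Q was in Cy5 and below 0 wherever it was in Cy3, namely Mrpl20, Mrpl24 and Mrpl30 (6.98%, against 4.67% of all genes), and 3 were the other way round, namely Mrpl42, Mrpl49 and Mrps35 (6.98%, against 10.8% of all genes). Mrps35, Mrpl15 and Mrpl32 were named after their values were seen, and Mrps35 had only small values (-0.0486 to 0.649 on 4 arrays).

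**Figure D3:**
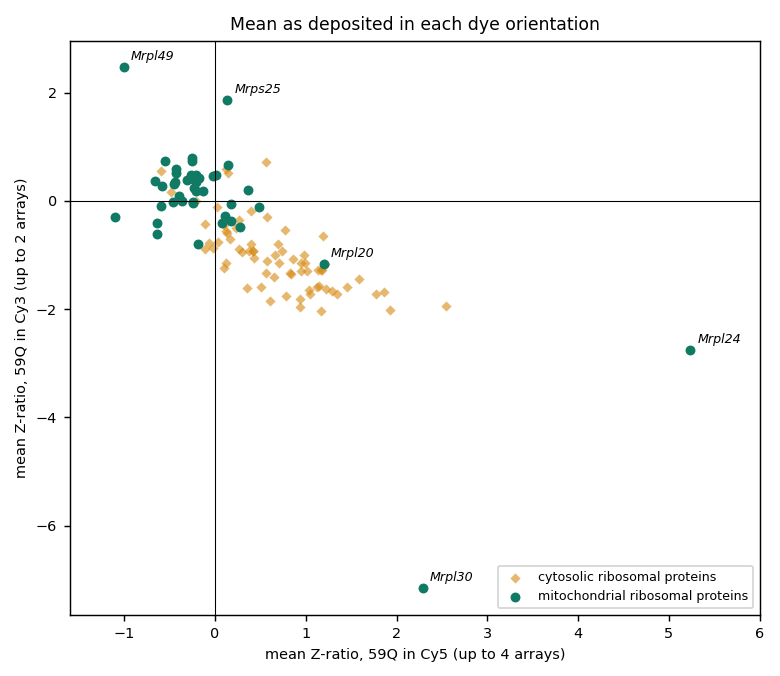
Mean Z-ratio as deposited (score) of each gene over the Cy5 arrays of 59Q (x axis) against its Cy3 arrays (y axis), for the 43 mitochondrial ribosomal protein genes tested and 70 cytosolic ones. Most mitochondrial genes lie within 1 unit of 0 on both axes and most cytosolic genes lie to the lower right of them, where Mrpl20 (1.20, -1.16) sits, while Mrpl24 (5.24, -2.75) and Mrpl30 (2.29, -7.16) lie far out.

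The subunits differed little in the deposited sign. The 32 large subunit genes tested had a median of -0.0605, with 12 above 0 and 20 below, and the 10 small subunit genes had -0.0213, with 4 above and 6 below. In the Cy5 over Cy3 reading these medians were -0.248 (10 above, 22 below) and -0.253 (1 above, 9 below). The 29 genes with a bacterial homolog had a median of -0.0747 as deposited and -0.240 in the other reading. Genes known from mitochondria only, 13 in all, had 0.0224 and -0.255.

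In the stalk that recruits translation factors, Mrpl12, which is also known to bind the mitochondrial RNA polymerase, was at -0.239 ± 0.350 (SD, n = 6), with 1 value of 6 above 0. Mrpl10, the base of the stalk, was at -0.173 ± 0.611 (SD, n = 6). Neither passed in either reading, with Cy5 over Cy3 means of -0.295 and -0.407. Around the tunnel exit Mrpl24 had the large values given above, but its neighbours there did not. Mrpl45, which anchors the ribosome at the inner membrane, had 0.331, 0.550, -0.183, -0.217, 0.393 and -0.998 on replicates 1 to 6, and Mrpl23 ran from -0.869 to 0.281.

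Of the small subunit, Mrps7 and Mrps11, homologs of bacterial proteins that bind the small ribosomal RNA, had deposited means of -0.0186 ± 0.494 and 0.171 ± 0.643, and Mrps15 had -0.0796 ± 0.643 (SD, n = 6 each). No small subunit gene passed in either reading. The paralogs Mrps18a and Mrps18b, which descend from the same bacterial protein and lie in different subunits, had -0.240 ± 0.791 and -0.425 ± 0.799 (SD, n = 6 each). On replicate 1 they were apart, at 0.0496 and -1.63, and on replicate 3 they were both low, at -1.03 and -0.894.

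The members with the smallest unadjusted p and a deposited mean above 0 were Mrpl24, Mrps25, Mrpl3, Mrpl36 and Mrpl20. Mrpl3, a conserved protein of the large subunit core, was at 0.348 ± 0.475 (SD, n = 5) and Mrpl36, another protein with a bacterial homolog, at 0.304 ± 0.582 (SD, n = 5), each above 0 on 4 of 5 arrays. Below 0 they were Mrpl2, Mrpl35, Mrps18b, Mrpl28 and Mrpl42. Mrpl35 had -2.09 on replicate 1 against -0.922 to 0.475 on the other arrays, and Mrpl28 was at -0.314 ± 0.557 (SD, n = 6). Apart from Mrpl2 none of these 10 had an unadjusted limma p under 0.05 as deposited. Mrps36, named after its values were seen because it is no ribosomal subunit, was at -0.295 ± 0.781 (SD, n = 6).

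**Figure D4:**
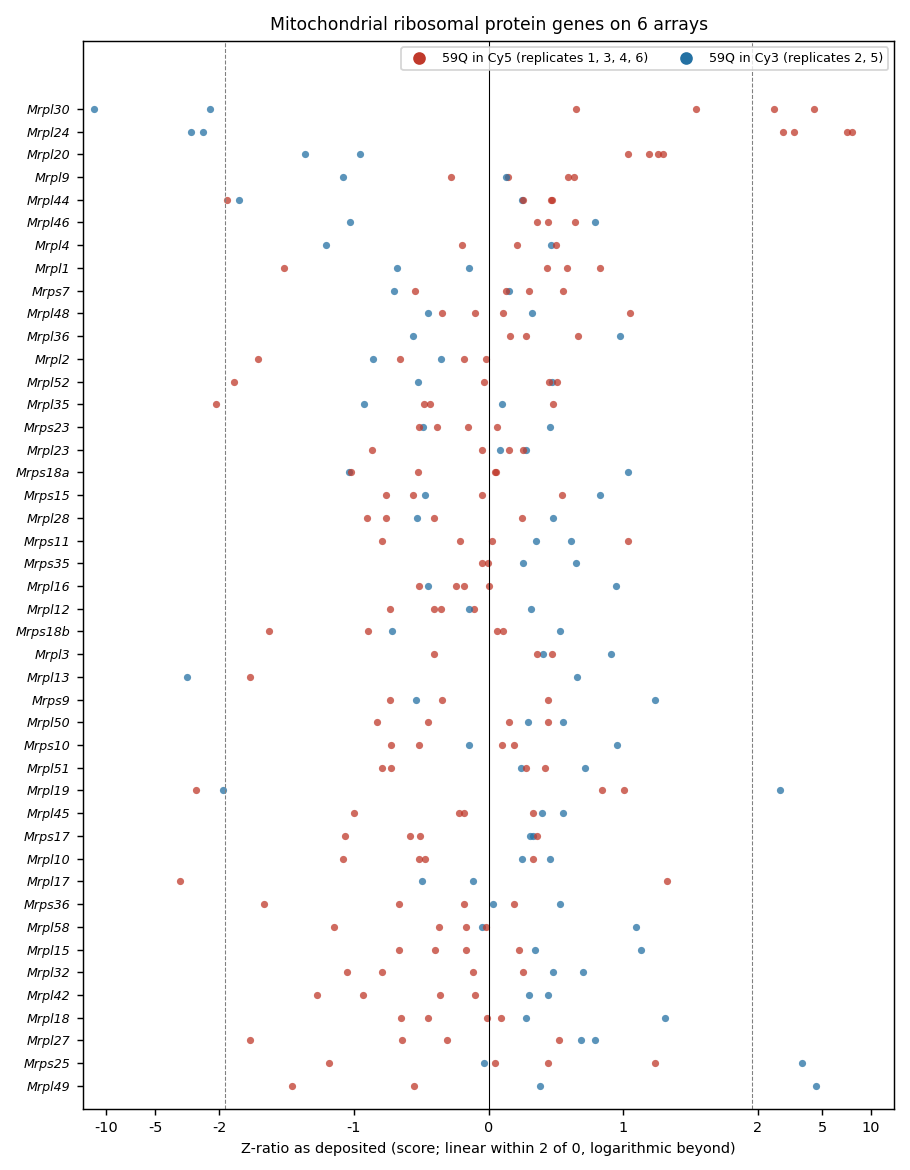
Z-ratio as deposited (score, x axis, linear within 2 of 0 and logarithmic beyond) of all 44 mitochondrial ribosomal protein genes (y axis, ordered by the difference between orientations) by dye orientation, with dashed lines at 1.96 either side of 0. 36 genes stay inside the dashed lines on every array, and Mrpl24 is outside them on all 6.

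Large values were more frequent among the members than over all genes, and most came from Mrpl24 and Mrpl30. Of 249 member values, 18 (7.23%) were at or beyond 1.96, against 2.70% over all genes tested, and 10 of the 18 came from Mrpl24 and Mrpl30. There were 8 genes with such a value on any array, and Mrpl24, Mrpl30 and Mrpl19 had it on more than 1. The matching share of all genes is not given here, so this count of genes does not set the members apart. Mrpl19, a large subunit protein with a bacterial homolog that was named after its values were seen, had 1.01, -1.98, -2.79, 2.74 and 0.846 on replicates 1, 2, 4, 5 and 6. The arrays of one orientation disagreed in sign there. The SD over 6 arrays had a median of 0.643 over the 34 members measured on all of them, against 0.634 over 4926 genes, and ranged from 0.350 (Mrpl12) to 5.90 (Mrpl30).

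Array by array, the members' values correlated with Pearson's r of 0.240 to 0.803 (median 0.602) in the 7 pairs of arrays with the same orientation, and of -0.703 to -0.288 (median -0.364) in the 8 pairs of opposite orientation. These are correlations across genes, which are not independent replicates, and the few large values carry much of them: Spearman's rho was -0.115 to 0.351 (median 0.205) within and -0.640 to 0.123 (median -0.276) between orientations. Over all genes r was 0.0514 to 0.287 (median 0.162) within and -0.453 to 0.0224 (median -0.192) between orientations. Spearman's rho over all genes had medians of 0.110 within and -0.204 between orientations, against 0.205 and -0.276 for the members.

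For 5 genes 2 different clones gave a second measurement on the same RNA. The clones did not track each other: over the arrays they shared, Pearson's r was -0.272 for Mrpl23 and -0.0322 for Mrps7, 0.358 for Mrpl50, and, over 5 arrays, -0.840 for Mrpl48 and 0.255 for Mrps17, given as a description. They had the same sign on 4 arrays for Mrps7 and Mrps17, 3 for Mrpl50, 2 for Mrpl23 and 1 for Mrpl48, and their mean gap ran from 0.629 for Mrpl50 to 1.34 for Mrpl48. Mrpl20, Mrpl24 and Mrpl30 each had a single clone, so their values have no such second measurement.

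**Figure D5:**
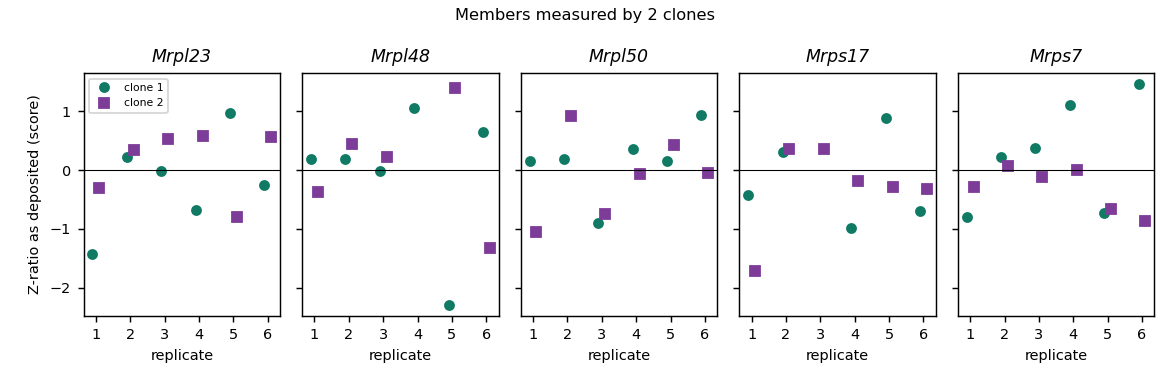
Z-ratio as deposited (score, y axis) of both clones of the 5 genes with 2 clones, on each replicate (x axis). The clones of Mrpl48 have opposite signs on most arrays, and in no gene do the clones share a sign on every array they share.

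The rest of the mitochondrial translation apparatus was read from fixed lists. No gene of these lists passed in limma in either reading. Dap3, a small subunit GTP-binding protein under a symbol of its own, was at 0.0958 ± 0.916 (SD, n = 6). Of 5 translation factors tested 3 were above 0 as deposited, and Tufm, the elongation factor that brings aminoacyl-tRNA to the ribosome, was at 0.0885 ± 0.957 (SD, n = 6). Of 11 aminoacyl-tRNA synthetases 7 were above 0, with Rars2 at 0.538 ± 0.781 and Gars, which also serves the cytosol, at -0.432 ± 0.397 (SD, n = 6 each). In the Cy5 over Cy3 reading 2 of the 5 factors and 5 of the 11 synthetases were above 0.

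Among 21 genes of ribosome assembly and mitochondrial RNA handling 8 were above 0 as deposited and 13 below. In the Cy5 over Cy3 reading 5 were above 0 and 16 below (23.8% above, against 34.6% of all genes). At an unadjusted limma p under 0.05 in that reading, 5 of the 21 were lower, where 13.4% of all genes were. Their orientation difference was below 0 in 17 of 21. Pnpt1, an exoribonuclease of mitochondria, was at 0.922 ± 0.817 (SD, n = 5) and Lrpprc, which stabilises mitochondrial mRNA, at -0.531 ± 0.633 (SD, n = 6). Neither passed the correction (limma adjusted p = 0.999). Among 13 genes of mitochondrial DNA expression 4 were above 0 as deposited, and the orientation difference was below 0 in 13 of 13, where 35% of all genes were above 0. In the Cy5 over Cy3 reading 1 of these 13 was above 0 (7.69%, against 34.6% of all genes). Tfam, which packages mitochondrial DNA, was at -0.137 ± 0.494 (SD, n = 6), and Tfb2m, a transcription factor of the organelle, at 0.514 ± 0.382 (SD, n = 5).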

How the data were processed

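RNA from 59Q and N3 transfected cells was labelled by the authors through tyramide amplification, hybridized to 6 cDNA arrays, quantified in GenePix Pro and expressed as Z scores. The authors deposited a Z-ratio per spot, a score without intensities, so no fold change, detection limit or depth can be given, and the number of arrays limits the precision. The sources used here give no software versions. The 2 neighbouring spots of a clone were averaged, then the clones of a gene. 3 clones whose annotation names an Mrps gene together with others were left out. Names came from the array annotation, with all 44 genes matched to RefSeq.

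The members and lists were chosen with earlier results of these data known. The 6463 genes with 4 or more arrays were fitted in limma 3.58.1 (R 4.3.3, moderated by eBayes, with Benjamini-Hochberg adjustment over all of them) as deposited, with the sign of replicates 2 and 5 turned, and with the orientation as a term. A 2-sided exact sign-flip permutation test was added for each gene, and the scripts were tested on simulated data. All 6 arrays counted as replicates. The sources differ here: the series record gives 4 biological replicates with flip-dye pairs that the labels do not identify, while the methods give 6 replicates from cultures of different batches, which the labels do not identify either. The p-values therefore measure the spread between arrays, which may be technical. Genes are named by role, by the 5 smallest p per direction as deposited, by the 5 highest and lowest orientation differences, for having 2 clones or failing the filter, and, of the lists, as Tfam, Tufm or by the smallest p. Alternatives covered centring, quantile normalization, missing values, extreme spots, clones, the variance model, a dye term, flip-dye pairing and leaving out each array.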

Additional observations from a re-analysis of the deposited data

Results flagged for a closer look

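Mrpl44 with 59Q in Cy5 had 1 array far from the other 3: -1.943 on replicate 1, against 0.257 to 0.472 on replicates 3, 4 and 6. It was the only one of 24 named genes with 4 such arrays for which Dixon's test passed, and chance gives about 1 in 20. On replicate 5, with 59Q in Cy3, Mrpl44 was also low, at -1.86.

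Among the genes named for the highest or lowest orientation difference, 5 had opposite signs by orientation, a pattern that this choice favours: every array with 59Q in Cy5 had one sign and every array with 59Q in Cy3 the other. Of all genes tested, 4.67% had this pattern with 59Q in Cy5 above 0 and 10.8% with it below. The difference of the orientation means was 2.357 for Mrpl20, 7.986 for Mrpl24, 9.45 for Mrpl30, -1.035 for Mrpl42 and -3.483 for Mrpl49. In limma, which tested each of these differences, none passed, and the smallest adjusted p was 0.134. The differences of Mrpl30 and Mrpl49 rested most on replicate 5, with values of -12.0 and 4.57 there.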

How the results depend on the processing

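In the Cy5 over Cy3 reading the 2 calls, Mrpl20 and Mrpl24, became 0 to 0 without each replicate in turn, 0 with robust and trended variances, and 0 at the lowest and 0 at the highest over the 12 ways to pair flip-dye arrays. Leaving out or pairing arrays leaves fewer samples, and otherwise the cause was not tested. As deposited, the 0 calls stayed 0 except in flip-dye pairing, where the count ran from 0 to 1. The 1 was Mrpl24, with replicate 2 paired with 3 and 5 with 4 (mean 2.71, limma adjusted p = 0.0391). It was also the only call among all 6463 genes in that pairing. In the Cy5 over Cy3 reading 1 of 6463 genes was called with replicate 2 paired with 6 and 5 with 1, and it was no member. The 9 genes without overlap between orientations (26.5% of 34, against 32.9% of all genes) became 10 of 40 (25%, against 38.5%, without replicate 3) to 21 of 34 (61.8%, against 56%, without replicate 2), and 6 of 34 with array medians subtracted (17.6%, against 27.9%). The median over the genes as deposited, -0.0462, changed sign to 0.0175 with a dye term, and the other medians kept their sign under every alternative run. Limiting spots to 5 called 3 genes, adding Mrpl30. Testing each of 14418 clones called 279 in the Cy5 over Cy3 reading, among them the clones of Mrpl20 and Mrpl24. Over all genes that reading called 18, against 54 with array medians subtracted, 32 after quantile normalization, 72 with all 6 arrays required, 50 with spots limited and 0 without any 1 replicate or with robust and trended variances.

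Of 671 values of single named genes recomputed, 14 lost a call, all of Mrpl20 or Mrpl24 in the Cy5 over Cy3 reading, and 1 gained one, Mrpl30 with spots limited to 5 (mean 2.56, limma adjusted p = 0.0441). The other 656 stayed on their side of the threshold. The sign changed in 35, and none of these had passed or came to pass. The replicate numbers are shared by no 2 arrays and gave no block, so the flip-dye pairings above are the only paired results. Missing spots limit replicate 3 most, and 10 of the 44 genes have no value there.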
